A study of Mus musculus with 90 samples.

Results

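Loss of the glucocorticoid receptor (GR) from hepatocytes was examined in the livers of control-fed mice at ZT0 and ZT4, the first hours of the light phase. The comparison holds 12 of the 90 livers of the series, each from a single mouse, chosen by their titles as the night-fed GR LKO and WT livers of these time points. There were 3 GR LKO and 3 WT livers at ZT0 and 3 of each genotype at ZT4. All were adult male mice of the C57BL/6J strain on chow, which fed freely and then, in the final week, only in the dark phase (ctrl.). WT mice carried the floxed GR gene on both alleles (GRfl/fl) without Cre, and GR LKO mice carried the same alleles with Cre under the Albumin promoter (GRfl/fl x Alb-Cre). Cre is then meant to act in hepatocytes, so that Kupffer, endothelial and stellate cells would keep GR, which was not measured by cell type here. RNA came from whole liver, so that fewer cells of a type and less RNA per cell cannot be told apart.

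GR, encoded by *Nr3c1*, is a nuclear receptor that binds corticosterone in the mouse and then moves to the nucleus, where it raises or lowers the transcription of its target genes. In hepatocytes it is known for driving gluconeogenesis and amino acid breakdown, for damping inflammation, and for acting with STAT5, the mediator of growth hormone. Corticosterone follows the day, with a peak near the onset of activity and low levels in the first hours of rest, which ZT0 and ZT4 cover.

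Estimated counts per gene were compared, with totals of 11772344 to 15067838 in ZT0 WT livers, 12853309 to 14263531 in ZT0 GR LKO, 13071643 to 15248141 in ZT4 WT and 10855203 to 14844578 in ZT4 GR LKO. Levels are given in CPM, the count of a gene relative to the total of its library after TMM scaling. Hepatocyte markers, led by *Alb*, summed to 94600, 120000 and 86500 CPM in ZT0 WT, 85000, 78200 and 89300 CPM in ZT0 GR LKO, 104000, 104000 and 105000 CPM in ZT4 WT and 82800, 79800 and 89700 CPM in ZT4 GR LKO livers. The genotypes thus overlapped at ZT0 and lay apart at ZT4, lower in GR LKO, and the part of this difference in the results was not tested. The Y-linked genes summed to 108 to 148 CPM in the 12 livers. The liver of ZT0 WT replicate 3 stood apart from the rest. Its TMM factor was 1.11 (0.932 to 1.04 in the others), and its 50 most abundant genes took 37.9% of its counts, against 43.9% and 43.7% in the other ZT0 WT livers. It also held more RNA of stellate cell markers (389 CPM in sum, against 222 and 251) and lymphocyte markers (8.75 CPM, against 2 and 1.49). The counts of genes called and the folds of *Tff3* and *Apoa4* are given with and without it. Other folds and the list medians include this liver unless stated, also where it held the highest or lowest value. The share of the 50 most abundant genes was 39.9% to 42.3% in ZT4 WT livers and 37.0% to 37.9% in GR LKO livers of both times, and the part of this difference in the results was not tested.

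The targeted gene was measured first. *Nr3c1* (ENSMUSG00000024431) stood at 74.9, 79.5 and 76.5 CPM in ZT0 WT livers and at 16.5, 19.7 and 21.3 CPM in ZT0 GR LKO livers. At ZT4 it stood at 93.5, 94.9 and 90.0 CPM in WT against 24.8, 21.9 and 22.6 CPM in GR LKO. Every GR LKO liver lay far below every WT liver, and each kept a remainder. The log2 fold change (GR LKO over WT) was -2.004 over both times (SE 0.0616, adjusted p = 4.17e-09, by the quasi-likelihood F test of edgeR, adjusted after Benjamini and Hochberg over all genes tested) and -2.004 at each time alone. Transcripts of cells other than hepatocytes, and of exons outside the floxed part, still count towards it.

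With time point as a covariate, 447 of the 12204 genes tested (3.66%) had an adjusted p under 0.05 and are called changed below. Of these, 321 (2.63%) were higher and 126 (1.03%) lower in GR LKO livers, and 2234 genes passed at an unadjusted p under 0.05. The changes were mostly small, with a median absolute log2 fold change of 0.47 among called genes, and 64 genes rose and 30 fell by a factor of 2 or more. Genotypes did not overlap at either time, in the same direction, for 598 genes (4.90%). The count moved when single livers were left out. It was 243 without ZT0 WT replicate 2, 261, 268 and 282 without ZT0 GR LKO replicates 1, 2 and 3, and 293 without ZT4 GR LKO replicate 1. Without the liver that stood apart it was 558.

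The genes that rose most included some that female mouse livers express more than male ones. *Slc22a26*, of the organic anion transporter family, had 0.820, 0.778 and 0.365 CPM in ZT0 WT livers and 21.2, 16.4 and 23.4 CPM in ZT0 GR LKO livers. Levels at ZT4 were 0.387, 1.20 and 0.277 CPM in WT against 13.1, 16.2 and 21.5 CPM in GR LKO. All GR LKO livers were high and all WT livers low at both times (log2 fold change 4.84, SE 0.28, adjusted p = 3.8e-06). Its relative *Slc22a27* had 0.802 to 1.19 CPM in the 6 WT livers and 3.80 to 9.999 CPM in the 6 GR LKO livers (2.69, adjusted p = 0.000119). *Cyp2b9*, a cytochrome P450, had at most 0.761 CPM in WT livers, but 64.9, 10.8 and 24.7 CPM in ZT0 GR LKO and 7.97, 1.58 and 65.7 CPM in ZT4 GR LKO livers. The GR LKO livers thus lay above all WT livers and spread widely among themselves (log2 fold change 6.73, SE 1.07, adjusted p = 0.00466). *Cyp2a4*, another P450, had 2.01 to 15.7 CPM in GR LKO and 0 to 1.39 CPM in WT livers (4.40, adjusted p = 0.00345). *Hamp2*, a relative of the iron hormone hepcidin, had 13.6 to 55.6 CPM in GR LKO and 2.94 to 7.57 CPM in WT livers (2.40, adjusted p = 0.00459).

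Of 26 female-biased genes listed, 16 were tested, and 8 rose and 1 fell in GR LKO livers. The other 10 did not pass the filter on low counts. Some of the tested genes, such as *Cyp2b9*, *Cyp2a4* and *Hao2*, were so low in WT livers that they passed it only through the GR LKO livers, so that the share of risers among tested genes is not one of the whole list. The risers outside the genes above were *Cyp2a22* (1.85), *Acot3* (1.73), a thioesterase of peroxisomes, and *Hao2*, an oxidase of hydroxy acids. *Hao2* had at most 2 counts in any WT liver and was at least 5.59-fold higher in GR LKO livers, at 0.287 to 2.06 CPM. The gene that fell was *Cyp17a1*, a steroid hydroxylase, with 8.93, 4.60 and 16.04 CPM in ZT0 WT and 1.79, 3.80 and 1.22 CPM in ZT0 GR LKO livers. The ZT4 livers held 4.10, 2.83 and 4.63 CPM in WT against 2.17, 1.65 and 1.16 CPM in GR LKO. The genotypes did not overlap at either time, and the highest value was that of ZT0 WT replicate 3 (-1.68, adjusted p = 0.0258). The call of *Cyp17a1* was lost without ZT0 WT replicate 1, ZT0 GR LKO replicates 1 and 3, ZT4 WT replicate 3 or ZT4 GR LKO replicate 3 (adjusted p 0.0509 to 0.0731).

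Of 15 male-biased genes tested, 6 were lower and 1 higher, with a median log2 fold change of -0.81. The share called was 46.7%, against 3.66% of all genes tested. *Mup20*, a major urinary protein that male mice use as a scent signal, had 7239.7, 7616.0 and 10384.1 CPM in ZT0 WT and 2048.5, 3433.5 and 2564.2 CPM in ZT0 GR LKO livers. At ZT4 the values were 8070.0, 5074.7 and 6923.2 CPM in WT against 2228.8, 2728.4 and 1319.2 CPM in GR LKO. The lowest WT liver lay above the highest GR LKO liver (log2 fold change -1.66, SE 0.19, adjusted p = 0.000903). *Gstp1*, a glutathione transferase, fell by 1.14 on the log2 scale (adjusted p = 0.00214), with 1476.8 to 2251.6 CPM in WT against 674.9 to 1250.6 CPM in GR LKO livers. *Moxd1* (-3.75), *Selenbp2* (-1.27), *Hsd3b5* (-1.02), a steroid dehydrogenase, and *Cyp7b1* (-0.81), an oxysterol hydroxylase, were also lower. *Moxd1* had under 2 CPM in every liver. *Cyp4a12a*, a fatty acid hydroxylase, was the male-biased gene that rose, by 0.71 (adjusted p = 0.015), from 275.7 to 482.9 CPM in WT to 487.3 to 704.4 CPM in GR LKO livers. Of the 7 calls, 2 held in every one of the fits that left out a liver, *Mup20* and *Gstp1*, and the other calls were lost without 1 or more of the livers other than ZT4 GR LKO replicate 2 (adjusted p up to 0.109). Of these 12 fits, 2 kept the call of *Selenbp2*, 4 that of *Moxd1*, 9 each those of *Hsd3b5* and *Cyp7b1*, and 11 that of *Cyp4a12a*. In a fit over all 42 control-diet livers the calls of *Moxd1*, *Hsd3b5* and *Selenbp2* were lost too (adjusted p 0.051, 0.0992 and 0.246). The number of male-biased genes called was 10 without ZT0 WT replicate 3, 3 without ZT0 GR LKO replicate 1, and 4 without ZT0 WT replicate 2, ZT0 GR LKO replicate 3 or ZT4 GR LKO replicate 1 or 3. ZT0 WT replicate 3, which stood apart, was very low for some of these genes, with 260.4 CPM of *Mup7* against 35708.8 and 19929.4 CPM in the other ZT0 WT livers and 10.2 CPM of *Mup12* against 955.2 and 493.1 CPM. Neither gene was called with it (adjusted p 0.221 and 0.277). Among 19 genes of growth hormone, STAT and IGF signaling, only the prolactin receptor *Prlr* was called by edgeR (0.49, adjusted p = 0.0206), while DESeq2 called 3. By edgeR the share called was 5.26%, against 3.66% of all genes tested. The edgeR call was lost without ZT0 WT replicate 1, ZT0 GR LKO replicate 1 or 3, or ZT4 GR LKO replicate 3 (adjusted p 0.0508 to 0.0551).

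**Figure D1:**
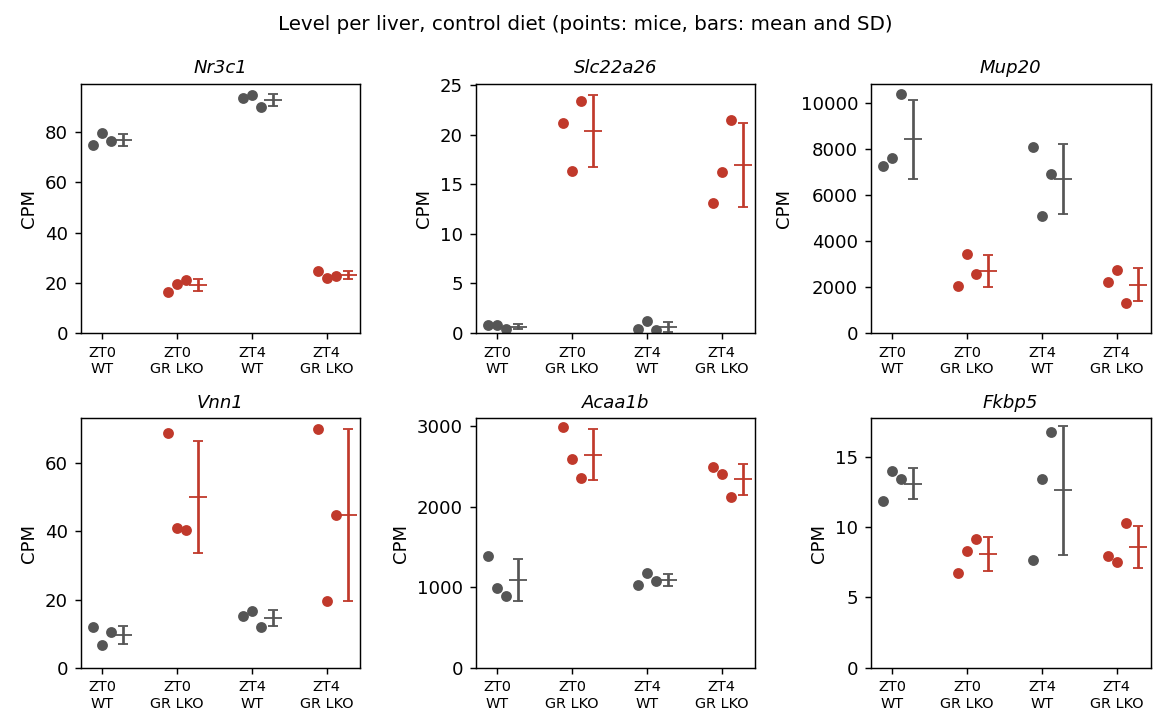
Level in CPM of 6 genes in each liver of the 4 groups, with points for mice and bars for the mean and SD. *Nr3c1* and *Mup20* were lower and *Slc22a26*, *Vnn1* and *Acaa1b* higher in every GR LKO liver than in any WT liver, while *Fkbp5* overlapped at ZT4.

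Many genes of fatty acid oxidation were higher in GR LKO livers. Of 29 tested genes in a list of oxidation genes and PPARα targets, 16 were called over both times, all higher, and the other 13 did not pass the test. The share called was 55.2%, against 3.66% of all genes tested. At ZT0 alone 11 were called and at ZT4 alone 1. A total of 29 of 29 had a positive log2 fold change (median 0.47), against 5924 of the 12204 genes tested. The list was chosen with earlier results of these data known, so that these counts are a description and not a test. *Acaa1b*, a thiolase of peroxisomal oxidation, had 1390.7, 986.1 and 892.2 CPM in ZT0 WT and 2991.9, 2592.4 and 2363.0 CPM in ZT0 GR LKO livers. At ZT4 it stood at 1033.0, 1174.4 and 1076.8 CPM in WT against 2493.8, 2404.0 and 2125.8 CPM in GR LKO. Genotypes were well apart at both times, with little spread (log2 fold change 1.19, SE 0.11, adjusted p = 0.000138). *Vnn1*, a pantetheinase, had 11.8, 6.65 and 10.4 CPM in ZT0 WT and 68.9, 40.9 and 40.5 CPM in ZT0 GR LKO livers. In ZT4 livers it reached 15.3, 16.6 and 11.8 CPM in WT against 70.0, 19.6 and 44.9 CPM in GR LKO, so that 1 GR LKO liver came close to the WT range (1.99, adjusted p = 0.00345). The fatty acid hydroxylases *Cyp4a14* (1.49) and *Cyp4a10* (1.38), the thioesterase *Acot2* (1.22) and *Pdk4* (1.06), a kinase that holds back glucose oxidation, were higher as well. Smaller rises were called for *Ehhadh* (0.53), *Slc25a20* (0.48), the mitochondrial acylcarnitine carrier, and *Cpt2* (0.32). Of the 16 calls, 11 held in every fit that left out a liver, and those of *Cyp4a14*, *Ehhadh*, *Slc25a20*, *Cpt2* and *Ech1* were lost without several of the livers other than ZT0 WT replicate 3 and ZT4 WT replicate 2 (adjusted p up to 0.0946). Of these 12 fits, 3 kept the call of *Cpt2*, 4 that of *Ehhadh*, 5 that of *Ech1*, and 8 each those of *Cyp4a14* and *Slc25a20*. Over all 42 control-diet livers the calls of *Cyp4a14* (adjusted p 0.132), *Acot4* (0.0985) and *Crat* (0.053) were lost.

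Some genes of lipid storage were also higher. Of 32 tested genes of lipid synthesis and storage 5 rose and 0 fell (median 0.31), so that 15.6% were called, against 3.66% of all genes tested. In contrast edgeR called none of 19 cholesterol genes, with 1 at an unadjusted p under 0.05. Of these 1 was called by DESeq2, 1 over all 42 control-diet livers, and 1 without ZT0 WT replicate 3 or ZT4 WT replicate 2. *Cidec*, a protein of lipid droplets, had 2.73, 0.707 and 8.82 CPM in ZT0 WT and 18.8, 21.9 and 11.5 CPM in ZT0 GR LKO livers. At ZT4 it had 0.929, 0.708 and 0.415 CPM in WT against 24.1, 14.2 and 2.96 CPM in GR LKO. Groups of the same time did not overlap, but the lowest GR LKO liver at ZT4 lay below the highest WT liver at ZT0 (2.97, adjusted p = 0.0261). That call was lost without ZT0 WT replicate 1 or 2, ZT0 GR LKO replicate 1 or 2, or any ZT4 WT liver (adjusted p 0.0568 to 0.065). *Cd36*, a fatty acid transporter, had 20.3 to 49.4 CPM in WT against 53.1 to 106.1 CPM in GR LKO livers (1.25, adjusted p = 0.00338). *Mogat1* (1.76), an acyltransferase of triglyceride synthesis, *Pparg* (0.86), a nuclear receptor related to PPARα, and the elongase *Elovl5* (0.80) also rose. The call of *Mogat1* was lost without ZT0 WT replicate 2, ZT0 GR LKO replicate 1 or 2, or ZT4 GR LKO replicate 1 (adjusted p up to 0.0641), and that of *Pparg* without any of 8 livers, namely ZT0 WT replicate 2, ZT0 GR LKO replicates 1 and 3, all ZT4 WT livers and ZT4 GR LKO replicates 1 and 3 (adjusted p up to 0.104). Outside this list, the lipoprotein receptor *Vldlr* had 2.28 to 4.67 CPM in WT against 5.55 to 15.2 CPM in GR LKO livers (1.74, adjusted p = 0.00186), and the lipid-binding *Osbpl3* had 2.49 to 14.4 CPM and 15.3 to 28.9 CPM (1.91, adjusted p = 0.00444).

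**Figure D2:**
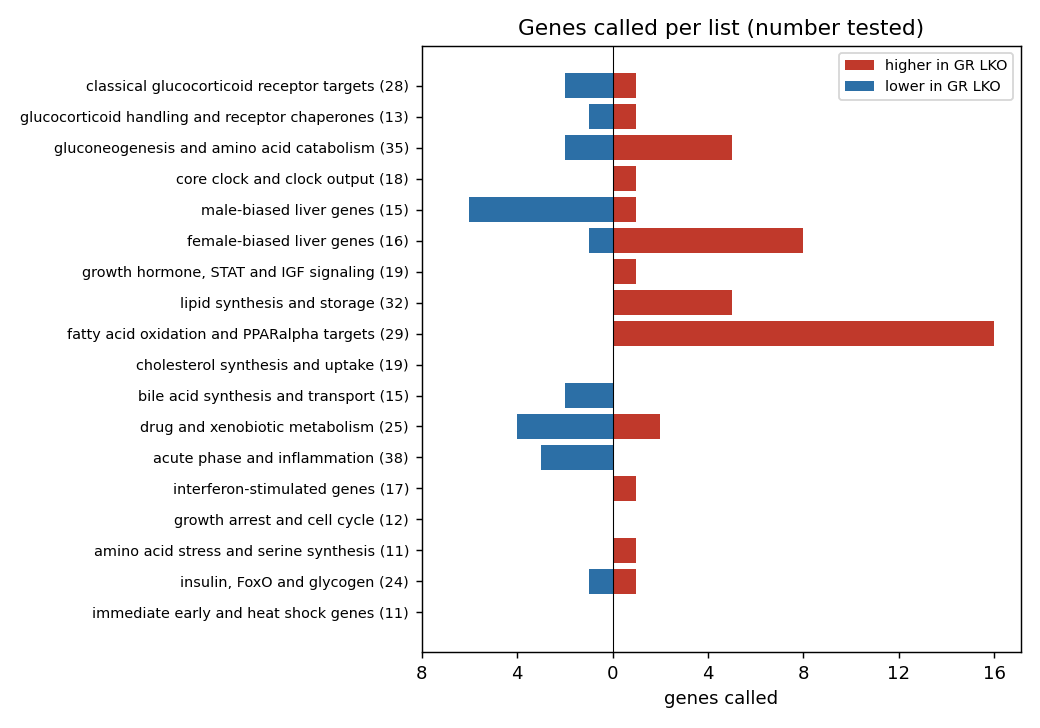
Number of genes called higher (right) or lower (left) in GR LKO livers in each of the 18 gene lists, with the number tested in brackets. Fatty acid oxidation held 16 genes called higher and 0 lower, and male-biased genes 6 called lower. Over all genes tested, 3.66% were called.

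Promoters of the oxidation genes were searched on both strands for the direct repeat AGGTCANAGGTCA, the letters that PPARα binds with RXR, with up to 2 mismatches. The motif and its mismatches were chosen with the results known, and a match is a description of the letters alone. RefSeq promoter windows of 300 bases (GRCm38.p6) were at hand for 22 of the 31 listed genes, in 24 windows, of which 3 held a match (12.5%). A match was found in 3.86% of all 32841 windows, in 3.17% of those of tested genes, in 5.33% of those of genes called higher and in 4.27% of those of genes called lower. The 2 called genes with a match, *Acot4* (0.49) and *Slc25a20*, are shown with the match in capitals, *Acot4* at chr12:84038129-84038428 and *Slc25a20* at chr9:108661886-108662185, both on the plus strand. The repeat lies on the minus strand in *Acot4* and on the plus strand in *Slc25a20*.
Acot4: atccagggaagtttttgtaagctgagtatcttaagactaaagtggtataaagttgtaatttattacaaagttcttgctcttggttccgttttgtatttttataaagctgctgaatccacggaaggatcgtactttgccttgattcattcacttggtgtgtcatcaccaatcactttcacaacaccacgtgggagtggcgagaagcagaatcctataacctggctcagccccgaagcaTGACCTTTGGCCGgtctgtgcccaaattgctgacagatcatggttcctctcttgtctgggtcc
Slc25a20: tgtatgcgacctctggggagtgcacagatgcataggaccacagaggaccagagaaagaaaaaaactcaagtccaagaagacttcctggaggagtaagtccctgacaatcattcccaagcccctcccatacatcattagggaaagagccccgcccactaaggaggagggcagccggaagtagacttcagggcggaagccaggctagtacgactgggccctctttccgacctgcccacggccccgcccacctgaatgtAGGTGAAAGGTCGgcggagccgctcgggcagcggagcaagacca

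The genes that fell most, apart from *Nr3c1*, included a transporter, secreted proteins and enzymes. *Slc3a1*, a subunit of the cystine transporter, had 50.8, 69.9 and 115.4 CPM in ZT0 WT and 17.5, 22.1 and 14.3 CPM in ZT0 GR LKO livers. Levels at ZT4 were 69.5, 58.1 and 64.5 CPM in WT against 14.9, 17.9 and 10.6 CPM in GR LKO. All GR LKO livers lay below all WT livers (log2 fold change -2.13, SE 0.20, adjusted p = 0.00013). *Enho*, which encodes the peptide adropin, had 12.7 to 26.3 CPM in WT against 4.08 to 6.999 CPM in GR LKO livers (-1.75, adjusted p = 0.000259). *Serpine2*, a protease inhibitor, had 13.2 to 26.1 CPM and 2.80 to 9.05 CPM (-1.81, adjusted p = 0.000264). The translation repressor *Eif4ebp3* (-1.77, adjusted p = 0.00285), the acyltransferase *Acnat2* (-1.74, adjusted p = 0.00381) and the glutathione transferase *Gstp2* (-2.31, adjusted p = 0.0149) were lower in all 6 GR LKO livers than in any WT liver of the same time. *Fam214a* had 13.3 to 16.8 CPM in ZT0 WT and 8.63 to 9.27 CPM in ZT4 WT livers, and no count in 3 of the 6 GR LKO livers (-3.19, adjusted p = 0.0238, or 0.06 without ZT0 WT replicate 2).

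Some falls were smaller without the liver that stood apart. *Tff3*, a trefoil peptide, had 0.820, 1.56 and 24.6 CPM in ZT0 WT livers, the last of them in ZT0 WT replicate 3, and 0.310, 0.991 and 1.04 CPM in ZT4 WT livers. GR LKO livers held at most 2 counts, a difference of at least 21.8-fold with that liver in the mean and of at least 4.2-fold without it. The fitted log2 fold change was -5.20 (adjusted p = 0.0274) with it and -3.20 (adjusted p = 0.0137) without it, and DESeq2 gave no p for it. The call of *Tff3* was lost without any single ZT0 GR LKO liver, without ZT4 WT replicate 3 or without ZT4 GR LKO replicate 3 (adjusted p 0.0517 to 0.0886). *Apoa4*, an apolipoprotein, had 84.0, 92.8 and 414.4 CPM in ZT0 WT and 44.2, 41.9 and 38.1 CPM in ZT0 GR LKO livers. The ZT4 livers held 104.5, 92.1 and 123.1 CPM in WT against 42.2, 30.7 and 33.7 CPM in GR LKO. Apart from the value of 414.4 CPM the WT livers lay close together, all above the GR LKO livers (-1.92, adjusted p = 0.0116, and -1.38 without that liver). *Apoa1*, the main protein of HDL, fell by 0.53 on the log2 scale (adjusted p = 0.00442).

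Of 28 classical GR targets tested, 1 rose and 2 fell, and the median log2 fold change was -0.08. The share called was 10.7%, against 3.66% of all genes tested. *Tdo2*, the first enzyme of tryptophan breakdown, had 1005.4, 1083.0 and 1095.3 CPM in ZT0 WT and 758.1, 763.1 and 687.3 CPM in ZT0 GR LKO livers. At ZT4 it stood at 1108.4, 1202.6 and 996.6 CPM in WT against 791.7, 910.6 and 832.9 CPM in GR LKO, a fall without overlap (-0.46, adjusted p = 0.00285). *Zbtb16*, a transcription factor, had 7.50 to 11 CPM in WT against 3.50 to 6.22 CPM in GR LKO livers (-0.76, adjusted p = 0.0188, or 0.176 in a fit over all 42 control-diet livers), and *Pdk4* was the riser. *Fkbp5*, a co-chaperone that limits GR itself, had 11.8, 14.0 and 13.4 CPM in ZT0 WT and 6.77, 8.29 and 9.19 CPM in ZT0 GR LKO livers. In ZT4 livers it reached 7.67, 13.4 and 16.7 CPM in WT against 7.97, 7.53 and 10.3 CPM in GR LKO, so that genotypes overlapped there, and it was not called (-0.63, adjusted p = 0.0616). It was called without ZT4 WT replicate 1 (adjusted p = 0.00802), over all 42 control-diet livers (0.0455) and by DESeq2 (0.0119). Not called either were *Tsc22d3* (0.13), *Per1* (-0.22), *Sgk1* (-0.22), *Tat* (0.04), *Pck1* (-0.07) and *G6pc* (0.32), with adjusted p of 0.455 or more.

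The same windows were searched on both strands for the palindrome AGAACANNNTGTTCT, to which a GR dimer binds, again as a description of letters. With up to 2 mismatches it was found in 4 of the 39 windows of 26 classical GR targets (10.3%), 1.85% of all windows and 1.09% of those of tested genes. These 4 windows belong to 2 genes, *Sgk1*, an ion transport kinase, and *Fam107a*, which was not tested and whose 2 windows overlap and hold the same match. With only the first window of each gene, the rule used at first and replaced after its shares were seen, 0 of 26 windows held a match. The palindrome was in 5 of the 117 windows of genes called lower (4.27%) and in 4 of the 338 of genes called higher. It was found without a mismatch in 3 of the 32841 windows (0.00913%), which belong to *Sgk1*, to *Acnat2*, which was called lower, and to a gene that was not tested. The window of *Sgk1* is shown as the only exact match among the classical targets, chosen after the search, at chr10:21993640-21993939 on the plus strand, with the palindrome in capitals. *Sgk1* had 13.9, 11.04 and 31.6 CPM in ZT0 WT and 19.5, 17.04 and 11.9 CPM in ZT0 GR LKO livers, and 11.2 to 19.2 CPM and 11.1 to 13.7 CPM at ZT4, with overlap at both times.
Sgk1: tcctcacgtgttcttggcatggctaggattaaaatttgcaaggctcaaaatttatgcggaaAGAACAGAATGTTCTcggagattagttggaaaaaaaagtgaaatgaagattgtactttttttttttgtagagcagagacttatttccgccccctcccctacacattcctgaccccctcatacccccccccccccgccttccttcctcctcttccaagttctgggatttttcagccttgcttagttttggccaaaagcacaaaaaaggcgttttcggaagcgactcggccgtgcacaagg

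Gluconeogenesis and amino acid breakdown moved in both directions, with 5 of 35 genes higher and 2 lower (median 0.01). The share called was 20%, against 3.66% of all genes tested. The largest rise was that of *Pcx*, pyruvate carboxylase, from 31.1 to 47.4 CPM in WT to 50.1 to 102.7 CPM in GR LKO livers (1.08, adjusted p = 0.00381). The transaminases *Gpt2* (0.58, adjusted p = 0.00264) and *Gpt* (0.32, adjusted p = 0.0315) and the dehydrogenase *Prodh2* (0.35) also rose. The calls of *Gpt* and *Fbp1* (0.27) were lost without several livers, of all but ZT0 WT replicate 3, ZT4 WT replicate 1 and ZT4 GR LKO replicate 2 (adjusted p up to 0.0798). Of the 12 fits that left out a liver, 4 kept the call of *Gpt* and 8 that of *Fbp1*. Among 13 genes of glucocorticoid handling (15.4% called), the 1 that fell was the targeted *Nr3c1* itself and 1 rose. That gene, *Serpina6*, which encodes the corticosteroid-binding globulin of blood, went from 122.6 to 202.7 CPM in WT to 210.2 to 265.4 CPM in GR LKO livers (0.57, adjusted p = 0.0217). Its call was lost without ZT0 WT replicate 2, ZT0 GR LKO replicate 3 or ZT4 GR LKO replicate 3 (adjusted p 0.0527 to 0.0626).

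Acute phase genes held 3 of 38 called, all lower, which was 7.89% against 3.66% of all genes tested. The median of the list was -0.22 with ZT0 WT replicate 3 included, and 5 genes were called without that liver. That liver was high for some of them, with 111.9 CPM of *Saa1* (17.1 and 21.3 CPM in the other ZT0 WT livers), 10.2 CPM of *Lcn2* (0.273 and 1.13 CPM) and 4839.6 CPM of *Hpx* (2195.2 and 2563.3 CPM). *Cp*, the copper carrier ceruloplasmin, had 1046.8 to 1106.2 CPM in WT against 701.9 to 860.4 CPM in GR LKO livers (-0.48, adjusted p = 0.000904), and *Il1r1*, the interleukin receptor, and *Fgb*, a fibrinogen chain, fell by 0.60 and 0.30 on the log2 scale. The call of *Il1r1* was lost over all 42 control-diet livers (adjusted p = 0.0675). In drug metabolism 2 of 25 genes rose and 4 fell (24% called), among them *Gstp1*, *Gstm3* (-1.10) and the sulfotransferase *Sult1a1* (-0.90, adjusted p = 0.000409). Only the calls of *Gstp1* and *Sult1a1* held in every fit that left out a liver. Those of both risers, *Abcc3* (0.65) and *Fmo1* (0.30), and of *Fmo5* (-0.35) and *Gstm3* were lost, *Abcc3* without ZT0 WT replicate 1 or 2, ZT0 GR LKO replicate 2 or ZT4 GR LKO replicate 1, *Fmo1* without any liver but ZT4 WT replicate 2 and ZT4 GR LKO replicate 2, and *Fmo5* without any liver but ZT0 GR LKO replicate 2 (adjusted p up to 0.122). Bile acid genes held 2 of 15 called (13.3%), both lower, *Cyp7b1* and the bile salt pump *Abcb11* (-0.27, adjusted p = 0.0488). Of these 2 calls, 0 held in every fit that left out a liver. Other lists held 1 call in each direction at most. These were *Usp18* (0.95) of 17 interferon-stimulated genes, *Vldlr* of 11 amino acid stress genes, and *Pdk4* and *Akt1* (-0.20) of 24 insulin and FoxO genes. The shares called were 5.88%, 9.09% and 8.33% in these lists, against 3.66% of all genes tested. By edgeR none of 12 cell cycle genes was called (2 at an unadjusted p under 0.05, 0 by DESeq2) and none of 11 immediate early and heat shock genes (1 at an unadjusted p under 0.05, 0 by DESeq2). Over all 42 control-diet livers 2 of the latter were called, *Egr1* and *Hsph1*. The calls of *Fgb*, *Gstm3*, *Abcb11*, *Usp18* and *Akt1* were each lost without several of the livers other than ZT0 WT replicate 3 (adjusted p up to 0.123). Of the 12 fits that left out a liver, 1 kept the call of *Abcb11*, 3 that of *Fgb*, 4 each those of *Usp18* and *Akt1*, and 6 that of *Gstm3*. Those of *Abcb11* (0.0665) and *Akt1* (0.0911) were also lost over all 42 control-diet livers.

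Markers of other liver cells were compared in the same fit. By edgeR none of 8 Kupffer and myeloid, 6 endothelial, 6 stellate and 4 cholangiocyte markers tested was called, nor any by DESeq2, and 0, 0, 1 and 1 of them had an unadjusted p under 0.05. Of 7 hepatocyte markers 1, *Apoa1*, was called lower, while *Alb* lay just outside the threshold (-0.37, adjusted p = 0.0542). *Alb* was called by DESeq2 (adjusted p = 0.0015), over all 42 control-diet livers (0.0205) and without ZT0 WT replicate 3 (0.0132). It was also called with RLE scaling (0.0497), at a minimum count of 50 (0.0325) and without a term for time (0.045). It was not called with no filter, with the replicate number as a block (0.142) or without any 1 of the other livers. Cholangiocyte markers, led by *Spp1*, summed to 50.3, 60.6 and 63.8 CPM in ZT0 WT, 44.5, 51.4 and 62.4 CPM in ZT0 GR LKO, 40.3, 46.5 and 46.4 CPM in ZT4 WT and 33.8, 36.8 and 29.1 CPM in ZT4 GR LKO livers, without overlap at ZT4, and the 4 tested had negative log2 fold changes (median -0.27). Kupffer and myeloid markers, led by *Clec4f*, summed to 171, 126 and 210 CPM in ZT0 WT, 97.7, 118 and 136 CPM in ZT0 GR LKO, 190, 122 and 166 CPM in ZT4 WT and 229, 141 and 265 CPM in ZT4 GR LKO livers, with overlap of the genotypes at both times. The gene that rose most of all, *Cfd*, is known as the adipocyte product adipsin. It had 0.911, 0 and 0 CPM in ZT0 WT and 46.2, 21.2 and 18.9 CPM in ZT0 GR LKO livers, and 0 CPM in all ZT4 WT and 16.1, 13.9 and 6.81 CPM in ZT4 GR LKO livers. Every GR LKO liver held it and 1 WT liver did. The fitted log2 fold change of 7.27 (adjusted p = 0.000117) rests for its size on 10 counts in that liver. Without it no WT liver had a count, and the level in GR LKO livers was at least 94.7-fold higher (adjusted p = 0.0016). Of the defining adipocyte markers, *Plin1* and *Lep* had no count in any of the 12 livers and *Adipoq* had at most 2. The 6 adipocyte markers, of which 2 were tested and *Cfd* was called, summed to 10.7, 7.36 and 12.5 CPM in ZT0 WT, 56.4, 33.7 and 28 CPM in ZT0 GR LKO, 8.98, 13.7 and 11.8 CPM in ZT4 WT and 24.9, 22.1 and 13.6 CPM in ZT4 GR LKO livers. *Ighm*, the heavy chain of IgM from B cells, had 8.24 to 33.8 CPM in WT against 43.3 to 111.3 CPM in GR LKO livers (1.97, adjusted p = 0.00686). Lymphocyte markers, led by *Cd79a*, summed to 1.49 to 8.75 CPM in WT against 1.37 to 3.94 CPM in GR LKO livers, none of the 2 tested was called by edgeR (0 at an unadjusted p under 0.05) or DESeq2, and their part in the rise of *Ighm* was not tested. *Alas2*, the heme synthesis enzyme of erythroid cells, rose from 118.5 to 138.8 CPM to 186.1 to 223.2 CPM (0.67, adjusted p = 0.000117), while the globin *Hbb-bs* ranged from 95.0 to 236.1 CPM in WT and from 107.2 to 292.0 CPM in GR LKO livers (0.35, adjusted p = 0.534). The 6 erythroid markers, 1 of 5 tested being called, summed to 466, 637 and 452 CPM in ZT0 WT, 874, 440 and 848 CPM in ZT0 GR LKO, 681, 342 and 557 CPM in ZT4 WT and 607, 673 and 796 CPM in ZT4 GR LKO livers, with overlap of the genotypes at both times, and their part in the rise of *Alas2* was not tested. Neutrophil and exocrine pancreas markers summed to at most 1.34 CPM in any liver, and none was tested. The remaining riser named by size was *Kbtbd11*, from 0.212 to 1.08 CPM in WT to 1.52 to 6.85 CPM in GR LKO livers (2.81, adjusted p = 0.0019).

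At ZT0 alone 287 genes (2.35%) were called, 229 higher (1.88%) and 58 lower (0.475%), and at ZT4 alone 28 genes (0.229%), 18 higher (0.147%) and 10 lower (0.0819%). The genotypes did not overlap for 2691 genes (22.1%) at ZT0 and 1928 (15.8%) at ZT4. The livers of the time points came from different mice and share no controls. Of the 287 genes called at ZT0, 273 had the same direction at ZT4, against 61.1% of all genes tested. Their median absolute log2 fold change was 0.57 at ZT0, and their median at ZT4, in the direction of ZT0, was 0.31. Of the 28 called at ZT4, 26 had the same direction at ZT0 (median 1.42 at ZT4 and 1.30 at ZT0), and 24 were called at both times. Each set was chosen by its effect at 1 time, which selects for large values there. Its 2 medians therefore do not compare the sizes of the effect at the 2 times. Fitted on the 6 livers of each time alone, 63 genes were called at ZT0 and 23 at ZT4. In the joint fit at ZT0 the count was 325 without ZT0 WT replicate 3, 180 and 83 without ZT0 WT replicates 1 and 2, 37, 80 and 112 without ZT0 GR LKO replicates 1, 2 and 3, 187 without ZT4 WT replicate 2 and 159 without ZT4 GR LKO replicate 1. At ZT4 it was 54 without ZT0 WT replicate 3, 16 without ZT0 GR LKO replicate 3, 15, 4 and 12 without ZT4 WT replicates 1, 2 and 3, and 6 and 16 without ZT4 GR LKO replicates 1 and 2.

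**Figure D3:**
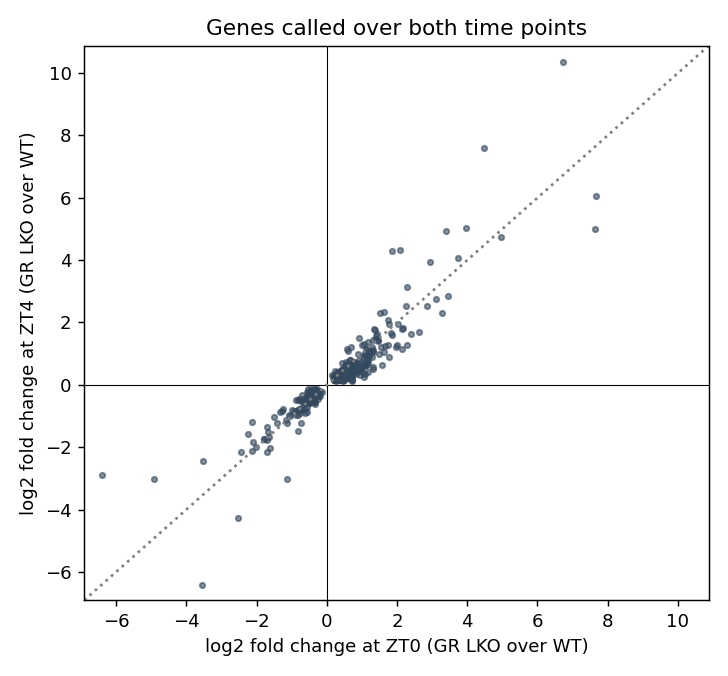
Log2 fold change (GR LKO over WT) at ZT4 against that at ZT0 for the 447 genes called over both times, with 1 point per gene and the diagonal dotted. Most points share their sign at both times, and the few at the edges are genes with counts near 0 in a group.

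The interaction of genotype and time point, the test of whether the effect differed between ZT0 and ZT4, called 0 genes by edgeR, with 791 at an unadjusted p under 0.05 and 10 called by DESeq2. The edgeR count was 1 without ZT0 GR LKO replicate 2, ZT4 WT replicate 1 or ZT4 GR LKO replicate 2. *Cry2*, a repressor of the circadian clock, was looked at after its values were seen. It was the 1 of 18 clock genes called over both times by edgeR (0.42, adjusted p = 0.0309), 5.56% of the list against 3.66% of all genes tested. It had 19.0, 21.2 and 20.9 CPM in ZT0 WT and 34.3, 32.9 and 33.2 CPM in ZT0 GR LKO livers. At ZT4 it had 32.1, 35.0 and 33.8 CPM in WT against 36.3, 40.0 and 35.1 CPM in GR LKO. WT livers were low at ZT0, and at ZT4 the genotypes were close, without overlap in this scaling. Scaled together with the ZT12 livers they did overlap at ZT4, with 34.13 CPM in WT replicate 2 and 33.91 CPM in GR LKO replicate 3. The effect on *Cry2* was 0.71 at ZT0 and 0.15 at ZT4, a difference of -0.57 (SE 0.11, unadjusted p = 0.000208, adjusted p = 0.759) that did not pass the test. Its mean effect at ZT0 and ZT4 did differ from that at ZT12 (0.56, adjusted p = 0.00982), where WT livers had a mean of 58.3 CPM and GR LKO livers 52.9 CPM. The call over both times was lost in 8 of 12 fits that left out a liver (adjusted p 0.0539 to 0.095), among them those without any single ZT0 liver, ZT4 WT replicate 1 or ZT4 GR LKO replicate 2. Over all 42 control-diet livers 5 clock genes were called, and without a term for time 0.

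The effect at ZT0 and ZT4 was compared with that at ZT12, the onset of the dark phase, in 4 WT and 4 GR LKO livers of the same diet. The mean effect at ZT0 and ZT4 differed from that at ZT12 for 41 of 12426 genes (0.33%), 36 (0.29%) with a more positive and 5 (0.0402%) with a more negative effect at ZT0 and ZT4, by edgeR. DESeq2 called 192, 148 and 44 in the respective directions. *Zbtb16* had a mean of 53.9 CPM (SD 10.9) in ZT12 WT and 3.67 CPM (SD 0.986) in ZT12 GR LKO livers, scaled over these 20 livers. At ZT0 the means were 7.88 and 5.03 CPM and at ZT4 9.38 and 5.02 CPM, so that the WT level was high at ZT12 alone of these times (log2 difference of effects 3.10, SE 0.27, adjusted p = 1.2e-05). *Fkbp5* had 63.6, 65.3, 51.8 and 111.8 CPM in ZT12 WT and 16.96, 16.7, 15.3 and 10.5 CPM in ZT12 GR LKO livers (1.66, adjusted p = 0.0255, or 0.0502 without ZT4 GR LKO replicate 3). *St3gal5*, a ganglioside synthase, had means of 182.4 and 47.8 CPM at ZT12, against 38.4 and 32.7 CPM at ZT0 and 33.0 and 30.3 CPM at ZT4 (1.76, adjusted p = 1.69e-05). *Mfsd2a*, a lipid transporter, *Tcim* and *Il1r1* had WT means of 118.2, 28.9 and 90.4 CPM and GR LKO means of 11.5, 5.24 and 15.8 CPM at ZT12, with differences of 2.30, 2.26 and 1.90. The call of *Mfsd2a* was lost without ZT4 GR LKO replicate 1 or 3 and that of *Tcim* without ZT0 GR LKO replicate 2, ZT4 WT replicate 2 or 3, or ZT4 GR LKO replicate 3 (adjusted p up to 0.0617). *Ppp1r9a*, an actin-binding protein, went the other way (-2.33, adjusted p = 0.00193), with 2.58 CPM in WT against 9.73 CPM in GR LKO livers at ZT12 but 18.9 and 14.0 CPM at ZT0. Over the 29 classical GR targets tested the median difference was 0.81, against -0.01 over all genes, and 2 were called, *Zbtb16* and *Fkbp5*.

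**Figure D4:**
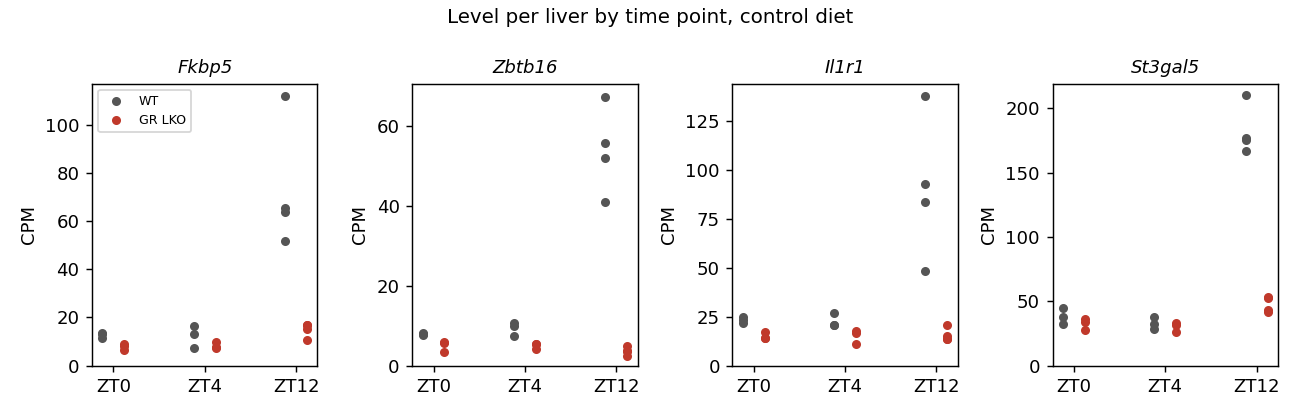
Level in CPM of 4 genes in each liver at ZT0, ZT4 and ZT12 on control diet, with 1 point per mouse. WT livers are highest at ZT12, where GR LKO livers lie below them, and the genotypes lie closer together at ZT0 and ZT4.

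On caloric restriction 3 GR LKO and 3 WT livers were measured at each of the same times, in a separate batch of libraries. Batch and diet cannot be told apart here, and only a shift shared by both genotypes drops out of a difference of effects. The effect of genotype differed between the diets for 4 of 12788 genes (0.0313%), by edgeR, all with a more positive effect on control diet. DESeq2 called 131 genes, 110 with a more positive and 21 with a more negative effect. *Treh*, trehalase, had group means of 1.73 and 1.43 CPM in WT against 1.94 and 1.99 CPM in GR LKO livers at ZT0 and ZT4 on control diet. On caloric restriction the means were 2.15 and 2.06 CPM in WT but 0.337 and 0.273 CPM in GR LKO livers (log2 difference 3.07, SE 0.42, adjusted p = 0.00784). *Wfdc21* (1.20), *Dock8* (0.64) and *Tmem97* (0.39) were the others (adjusted p 0.0415 to 0.044). The count was 7 without ZT0 WT replicate 3, 1 without ZT0 WT replicate 1, ZT0 GR LKO replicate 1 or ZT4 GR LKO replicate 1 or 2, and 2 without ZT4 WT replicate 1 or ZT4 GR LKO replicate 3. The calls of *Wfdc21*, *Dock8* and *Tmem97* were lost in 6, 10 and 9 of 12 fits that left out a liver, and that of *Treh* in none. DESeq2 gave *Treh* no adjusted p (3.11, unadjusted p = 5.39e-12), so that it is not among the genes DESeq2 called, and a minimum count of 50 left it untested.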

How the data were processed

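Total RNA of whole liver was sequenced from polyA libraries. Per the submitters' processing notes, the authors checked reads with FastQC and MultiQC, quantified them with Salmon and tested with DESeq2. They deposited estimated counts per gene, not normalized. The transcript annotation behind them is not given in the sources used here. Here they were rounded to whole numbers and analysed in R 4.3.3 with edgeR 4.0.16 (TMM, filterByExpr at a minimum count of 10, quasi-likelihood F test, Benjamini-Hochberg adjustment, threshold 0.05). Of 27654 gene IDs, 27244 were matched to a symbol, and the other 410 held 0.0992% of counts. Members and gene lists were chosen with earlier results of these data known. Genes were named by size: the 12 largest changes in each direction among called genes with at least 5 CPM in a group and no overlap at either time, up to 4 called genes per list, classical GR targets, and the 6 largest differences of effects, or all where fewer were called. *Fkbp5* against ZT12, further list genes and all promoter motifs were chosen after values were seen. A fold against a group with at most 3 counts per library is a lower bound against 3 counts. The test was also run on simulated data, whose outcome is not given here and on which no result rests. Alternatives were DESeq2 1.42.0, other scaling, filters, fits and each liver left out. Some genes of the lists are counted but not reported here by name.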

Additional observations from a re-analysis of the deposited data

Results flagged for a closer look

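The effect of genotype differed between times or diets, by the test of that difference in edgeR, for these genes named by size. Against ZT12, the log2 difference (effect at ZT0 and ZT4 minus effect at ZT12) was 3.10 for *Zbtb16*, 2.30 for *Mfsd2a*, 2.26 for *Tcim*, 1.90 for *Il1r1*, 1.76 for *St3gal5* and -2.33 for *Ppp1r9a*. Against caloric restriction at the same times it was 3.07 for *Treh*, 1.20 for *Wfdc21*, 0.64 for *Dock8* and 0.39 for *Tmem97*. Of the 12 fits that left out a liver, only 6, 2 and 3 kept the calls of *Wfdc21*, *Dock8* and *Tmem97*. Those of *Mfsd2a* and *Tcim* were kept in 10 and 8 of them, and the other calls of this paragraph in all 12.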

How the results depend on the processing

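No gene named by size changed direction under any alternative run. DESeq2 called 781 genes over both times (498 higher, 283 lower), 10 for the interaction, 682 at ZT0, 164 at ZT4, 192 against ZT12 and 131 against caloric restriction. A fit over all 42 control-diet livers called 757 over both times, 630 at ZT0 and 48 at ZT4, and the 6 livers of a time alone called 63 at ZT0 and 23 at ZT4. RLE scaling (447 genes, 303 higher), no filter (372), a minimum count of 50 (486) and no term for time (383) stayed within 1.5 times of 447. Leaving out each liver in turn gave 243 to 558 genes over both times, 0 to 1 for the interaction, 37 to 325 at ZT0, 4 to 54 at ZT4, 29 to 54 against ZT12 and 1 to 7 against caloric restriction. By list, DESeq2 called 7 acute phase genes, 9 of lipid synthesis and storage and 2 of amino acid stress. Leaving out 1 liver moved the number called to 4 to 8 for gluconeogenesis, 2 to 6 for lipid synthesis, 2 to 7 for drug metabolism, 2 to 5 for acute phase, 0 to 3 for bile acid and 0 to 2 for interferon-stimulated genes. The cause of these differences was not tested.

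Replicate numbers were not treated as pairs of mice. Deviations of same-numbered livers correlated at -0.0429 to 0.0798 over 6 pairs, 0 of them over the limit of 0.1, and 3 of 6 WT livers correlated best with their own number. With 3 livers per group such correlations cannot exclude a pairing, and the counts of the block fit had been seen before this check. With the replicate number as a block, 243 genes were called over both times, 0 for the interaction, 37 at ZT0, 9 at ZT4, 8 against ZT12 and 0 against caloric restriction. The block removed the calls of *Fam214a* (adjusted p 0.0732), *Gstp2* (0.0657) and *Cyp17a1* (0.114), of the 24 genes named by size over both times, and those of *Zbtb16* (0.0605) and *Il1r1* (0.0766). Against ZT12 it removed those of *Ppp1r9a* (0.0702), *Tcim* (0.131), *Il1r1* (0.11) and *Fkbp5* (0.131), and against caloric restriction those of *Treh* (0.0806), *Wfdc21* (0.111), *Dock8* (0.092) and *Tmem97* (0.111). Other list genes named that it removed were *Moxd1*, *Selenbp2*, *Prlr*, *Cyp4a14*, *Cpt2*, *Gpt*, *Prodh2*, *Fbp1*, *Fgb*, *Abcc3*, *Fmo1*, *Fmo5*, *Abcb11*, *Usp18*, *Akt1* and *Cry2* (adjusted p 0.0542 to 0.141). With no filter the calls of *Akt1*, *Abcb11*, *Fgb*, *Fmo1*, *Fmo5* and, against caloric restriction, *Tmem97* were lost (0.0531 to 0.0872), without a term for time those of *Abcb11*, *Fgb*, *Fmo1*, *Fmo5*, *Cry2* and *Selenbp2* (0.0586 to 0.216), and with RLE scaling that of *Fmo1* (0.0558). The call of *Fam214a* was also lost over all 42 livers (0.111) and without a term for time (0.0557), and that of *Cidec* without a term for time (0.0509).

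The depth and the 3 mice per group limit how small an effect can be called. Genes of near-identical families (*Cyp2a4*, *Cyp2a22*, *Cyp2b9*, *Cyp4a*, *Mup20*, *Slc22a26*, *Slc22a27*, *Gstp1*, *Gstp2*, *Acot2*, *Acot3*, *Acot4*, *Hamp2*, *Acnat2*) are uncertain, because estimated counts divide reads shared between copies.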
